A study of Mus musculus with 6 samples.

Results

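Regulators of the hair cycle and of cell fate in the hair follicle were followed in bitten ear skin: Lef1, Shh, Lgr5, Bmp4, Sox9, Msx2, Hoxc13, Foxn1, Dlx3 and Gata3. These 10 genes were chosen by symbol, and all were found among the 15667 genes of the deposited table and among the 14306 genes tested. The samples were ear skin of female mice aged 7 to 8 weeks on a mixed B6;129 background, either Adipo+/+ (WT, n = 3) or Adipo-/- littermates (KO, n = 3) that carry the Adipoq tm1Chan null allele in every cell. Nymphs of Ixodes scapularis had fed for 48 h, with 10 ticks per mouse, before a 3.5 mm punch was taken at the bite. All mice of both groups were bitten, and unbitten skin was not analysed here. A library is labelled here by its genotype and replicate number.

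The hair follicle passes through growth (anagen), regression (catagen) and rest (telogen). In growth, cells of the hair matrix divide and turn into the hair shaft and the inner root sheath around it, and Wnt signaling, relayed by beta-catenin and LEF1, together with the ligand SHH drives this phase, while BMP ligands hold stem cells at rest and promote differentiation. HOXC13, MSX2, FOXN1 and DLX3 are transcription factors that control hair shaft genes, GATA3 directs the inner root sheath, and SOX9 and LGR5 mark stem and progenitor cells of the outer root sheath and bulge.

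Values are CPM (reads of a gene scaled to a common library total), and differences are on the log2(CPM + 0.5) scale. Implied depth was 3403705 to 6591509 reads, so that 3 reads stood for 0.455 to 0.881 CPM. Adipoq, the targeted gene, had 30.5, 63.7 and 49.6 CPM in the WT libraries and 0, 0.56 and 0 CPM in the KO libraries, which fits the labels. The skin keratins Krt5, Krt14, Krt1 and Krt10 were at 2559 to 15152 CPM in every library, and the dermal collagens Col1a1 and Col3a1 at 1036 to 2437 CPM. WT replicate 3 stood apart from the other WT libraries in follicle genes, and results are therefore given with and without it.

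The sequence before listed starts of transcription was examined for 5 of the 10 genes (Lef1, Bmp4, Foxn1, Msx2 and Gata3), those matched by symbol in the RefSeq promoter table (GRCm38.p6). Not all of this sequence lies outside transcripts. The windows of Gata3 and Msx2 and those at the first Lef1 starts lay wholly in annotated exons (GENCODE M21). Of the Foxn1 window 175 bases lay inside its RefSeq gene. Windows of 250 bases were searched on both strands for 6 words. CTTTGA is read by LEF1 and its relatives, and ACAAAG is read by SOX factors. TAATTG is a core of homeodomain sites, such as those of MSX2 and DLX3, and AGATAA is bound by GATA factors. TGGGTGGTC belongs to the GLI factors, which are the effectors of SHH, and TATAAA is the TATA box. On the same strand the LEF1 and SOX words can share a letter. Read on the other strand, the LEF1 word is TCAAAG, which differs from the SOX word only in its first letter. Lef1 had several listed starts and so several windows, against a single window for each other gene, which gave it more chances of a match. Of the 5 genes only Lef1 held any of these words, and only at 1 of its listed starts, an internal one inside the gene. The sequence before that start, chr3:131156044-131156293 (plus strand), is shown with the matched words in capitals. The window of Bmp4, chr14:46390670-46390919 (minus strand), which held none, is shown beside it. Both are printed 5′ to 3′ on the strand of the gene.
Lef1, internal start: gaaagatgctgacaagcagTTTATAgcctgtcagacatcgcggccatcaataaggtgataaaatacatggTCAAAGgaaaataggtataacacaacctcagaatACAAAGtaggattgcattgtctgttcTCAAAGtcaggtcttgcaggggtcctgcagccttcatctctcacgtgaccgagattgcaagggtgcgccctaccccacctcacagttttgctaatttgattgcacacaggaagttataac
Bmp4: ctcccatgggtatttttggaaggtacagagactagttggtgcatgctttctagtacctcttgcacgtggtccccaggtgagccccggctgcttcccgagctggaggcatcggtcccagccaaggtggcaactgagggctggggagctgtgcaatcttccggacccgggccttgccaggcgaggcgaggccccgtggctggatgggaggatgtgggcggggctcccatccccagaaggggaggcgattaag
The Lef1 window held 2 matches of the LEF1 word, 1 of the SOX word and 1 of the TATA box. Among all 32851 windows of this length in the table, the LEF1 word was held by 13.8%, the SOX word by 16.5% and the TATA box by 12.4%. The homeodomain word was held by 7.17%, the GATA word by 9.99% and the GLI word by 0.225%. A match is a run of letters and not a binding site. Whether these words bear on the levels of the genes or their spread between libraries was not tested.

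To compare the genotypes, each gene was first examined in every library. Lef1 (chromosome 3, 131110297 to 131224357, plus strand), the transcription factor that carries the Wnt signal into the nucleus, was at 1.45, 2.24 and 38.9 CPM in WT replicates 1, 2 and 3, against 3.49, 6.17 and 4.99 CPM for the KO mice in the same order of numbers. WT replicate 3 was above all other libraries, whereas the other WT libraries were below all KO libraries. The log2 fold change (KO minus WT) was -0.18 (SE 1.02), with a 95% interval of -2.53 to 2.18 and an adjusted p of 0.998 in limma.

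Shh (chromosome 5, 28456840 to 28467101, minus strand), the hedgehog ligand made by the hair matrix, had 0.242, 0 and 8.08 CPM in the WT libraries against 0.455, 0.841 and 0.294 CPM in the KO libraries. It was under 1 CPM in 5 of the 6 libraries, which held 3 reads or fewer each, against 49 reads in WT replicate 3. Its mean was 1.65 CPM with WT replicate 3 and 0.366 CPM without it, so Shh passed the filter at a mean of 1 CPM through that library only. The log2 fold change was -0.55 (SE 1.02, 95% interval -2.90 to 1.80).

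Lgr5 (chromosome 10, 115450314 to 115587780, minus strand), a receptor for R-spondins that amplify Wnt signaling, had 4.11, 8.75 and 25.2 CPM in the WT libraries against 7.28, 21.6 and 8.81 CPM in the KO libraries. High values were found in 1 library of each genotype, WT replicate 3 and KO replicate 2, and the groups overlapped (log2 fold change 0.18, SE 0.64). Bmp4 (chromosome 14, 46383525 to 46390669, minus strand), a ligand of the BMP family, had 12.8, 21.4 and 26.4 CPM in the WT libraries against 13.7, 16.0 and 13.2 CPM in the KO libraries. Here WT replicates 2 and 3 were above every KO library and WT replicate 1 was below them (-0.43, SE 0.27, 95% interval -1.05 to 0.19). Without WT replicate 1 the Bmp4 values no longer overlapped, and the log2 fold change was -0.72 (SE 0.20, unadjusted p = 0.00847, adjusted p = 0.956 in limma). Of all genes tested, 13.0% had KO values wholly below WT and 2.47% were lower at an unadjusted p below 0.05 in that fit, with 0.0140% past the adjustment. WT replicate 1 was the only WT library below the KO values of Bmp4, so leaving it out fixed the lack of overlap. The Bmp4 results without WT replicate 1 are therefore a description only.

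Sox9 (chromosome 11, 112782210 to 112787757, plus strand), an HMG box factor that maintains follicle stem cells, had 51.6, 64.1 and 157 CPM in the WT libraries against 58.3, 113 and 80.2 CPM in the KO libraries. The highest level was again in WT replicate 3 and the next in KO replicate 2 (log2 fold change 0.0089, SE 0.41, 95% interval -0.94 to 0.96). Cartilage also uses Sox9. A list was scored in each library by averaging log2(CPM + 0.5) over the genes that were tested. The score of 11 cartilage genes was 2.5 to 3.09 in WT and 2.97 to 4.08 in KO, highest in KO replicate 3. The part of cartilage in Sox9 was not tested.

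**Figure D1:**
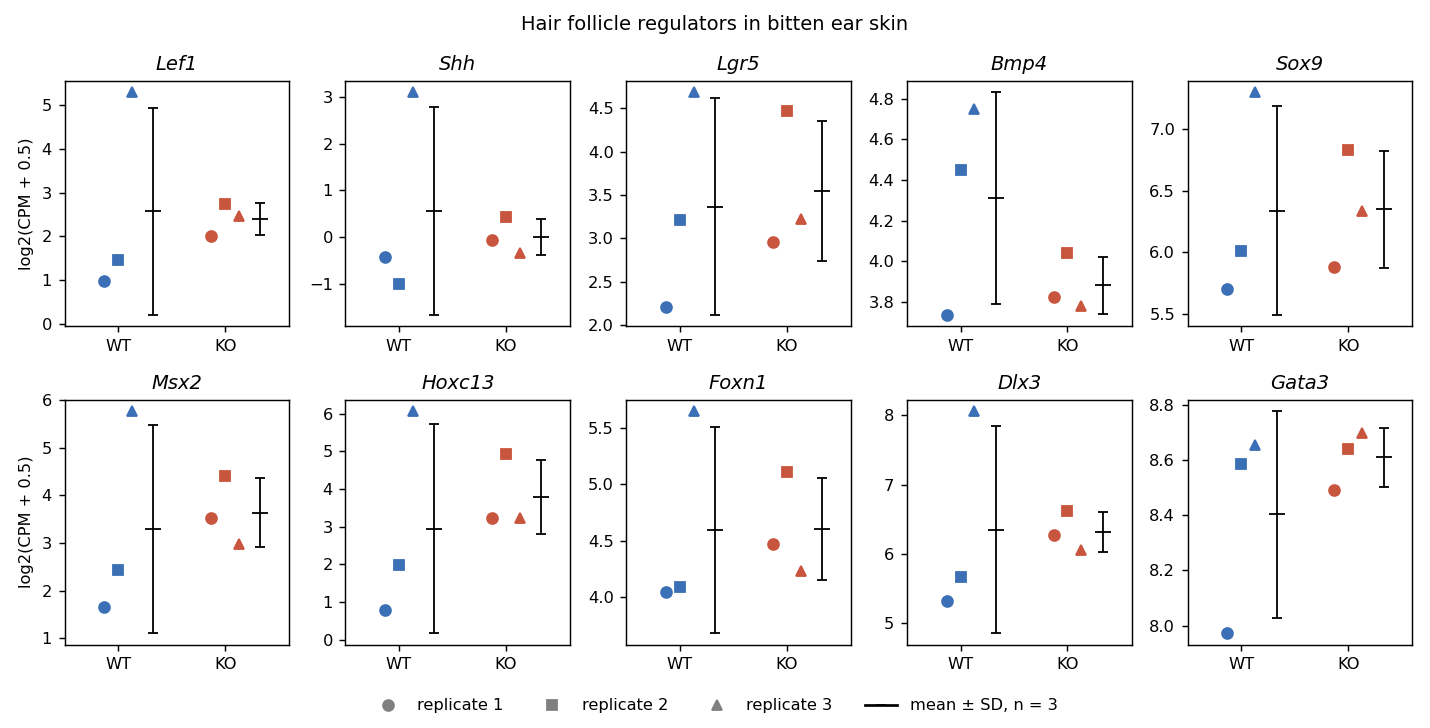
The level of each of the 10 regulators, as log2(CPM + 0.5), in 3 WT (blue) and 3 KO (red) libraries, with marker shape for the replicate number and the mean ± SD (n = 3) in black; each panel has its own axis. WT replicate 3 is the highest library in 9 of the 10 panels, and WT and KO overlap in all of them. Shh was tested only through its level in WT replicate 3.

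The factors of the hair matrix were also highest in WT replicate 3 and next in KO replicate 2. Hoxc13 (chromosome 15, 102921131 to 102928814, plus strand), a homeodomain factor that activates hair keratin genes, had 1.21, 3.46 and 67.3 CPM in the WT libraries against 8.95, 30.0 and 8.81 CPM in the KO libraries. This was the widest range of the 10 genes, 5.31 on the log2 scale, and every KO library lay between WT replicate 2 and WT replicate 3. Its log2 fold change was 0.85 (SE 1.23, 95% interval -1.996 to 3.69).

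Msx2 (chromosome 13, 53466881 to 53472780, minus strand), a homeodomain factor of the matrix, had 2.66, 4.88 and 54.6 CPM in the WT libraries against 11.1, 20.7 and 7.34 CPM in the KO libraries (log2 fold change 0.35, SE 0.97). Dlx3 (chromosome 11, 95120117 to 95125296, plus strand), a homeodomain factor of shaft and epidermal differentiation, had 39.5, 50.04 and 268 CPM in the WT libraries against 76.9, 98.1 and 65.8 CPM in the KO libraries (-0.033, SE 0.64). Foxn1 (chromosome 11, 78357577 to 78386608, minus strand), the forkhead factor lost in nude mice, had 16.0, 16.5 and 49.8 CPM in the WT libraries against 21.7, 33.9 and 18.2 CPM in the KO libraries (0.0077, SE 0.44). For all 3 genes WT replicates 1 and 2 lay below the KO libraries and WT replicate 3 lay above them. The sign for Dlx3 turned with quantile normalization (0.012) and that for Foxn1 with a pseudocount of 2 (-4.34e-05).

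Gata3 (chromosome 2, 9857078 to 9878600, minus strand), the zinc finger factor of the inner root sheath that T cells and group 2 innate lymphoid cells also use, varied least. It had 251, 384 and 402 CPM in the WT libraries against 359, 399 and 415 CPM in the KO libraries, and only WT replicate 1 was set apart, below the rest (log2 fold change 0.21, SE 0.18, 95% interval -0.21 to 0.63). Without WT replicate 1 the log2 fold change was -0.0095. The score of 12 tested genes of T cells and innate lymphoid cells was 3.20 to 3.48 in WT and 3.15 to 3.35 in KO, with Cd3g at 4.20 to 7.53 CPM and Thy1 at 111 to 186 CPM. The part of these cells in Gata3 was not tested.

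Levels can be compared between genes per length of exon (GENCODE M21). On that scale Gata3 had the highest mean level over the 6 libraries, 92.6 CPM per kb, followed by Dlx3 (38.2) and Sox9 (21.1). Hoxc13, Foxn1, Bmp4 and Msx2 lay between 5.15 and 8.11 CPM per kb, and Lgr5 (1.23), Lef1 (1.09) and Shh (0.580) were lowest. Dlx3 and Sox9, and neighbours within the middle and the lowest set, differed by less than their spread over libraries. By the median, which a single library moves less, the order was Gata3 (98.4 CPM per kb), Dlx3 (27.4), Sox9 (17.4), Bmp4 (6.59), Foxn1 (6.21), Hoxc13 (3.61), Msx2 (2.81), Lgr5 (0.855), Lef1 (0.483) and Shh (0.132). Exons of Lef1, Shh, Gata3 and Bmp4 overlap those of antisense genes, and whether counting used strand is not stated in the sources, so reads of these partners cannot be told apart from theirs. Exons of Gata3 also overlap those of 9230102O04Rik on the same strand, over 77 bases, which counting by strand would not separate.

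In limma 0 of the 10 genes passed the adjustment, against 0.0140% of the 14306 genes tested, and 0 reached an unadjusted p below 0.05, against 2.88% (1.82% lower and 1.06% higher in KO). No regulator had KO values wholly above or below the WT values, against 7.84% of all genes tested. The median log2 fold change of the 10 genes was 0.0083 and that of all genes tested was -0.032. Intervals were wide: for Hoxc13, Lef1, Shh and Msx2 they covered a change of at least 1.80 on the log2 scale in either direction. No difference between the genotypes was thus detected, and for these 4 genes the intervals still hold large differences. Those of Dlx3 (-1.505 to 1.44), Lgr5 (-1.29 to 1.65) and Foxn1 (-1.01 to 1.03) still hold a change of 1 in either direction. The interval of Bmp4 reached -1.05, that of Sox9 was -0.94 to 0.96, and that of Gata3 was narrowest (-0.21 to 0.63). In whole skin, fewer cells of a type and less RNA per cell cannot be told apart.

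The spread between libraries was larger than in most genes. The SD of log2(CPM + 0.5) over the 6 libraries was 1.92 for Hoxc13, 1.52 for Lef1, 1.47 for Msx2 and 1.46 for Shh, against a median of 0.25 over all genes tested. It was 0.97 for Dlx3, 0.94 for Lgr5, 0.65 for Foxn1, 0.61 for Sox9, 0.41 for Bmp4 and 0.27 for Gata3. The SD of 7 of the 10 genes was above that of 90% of all genes tested. WT replicate 3 was the highest library for 9 of the 10 genes, all but Gata3, while 19.9% of all genes tested were highest in it. Shh was tested only through its level in WT replicate 3. Its place among these 9 genes was thus fixed by the filter, and its wide SD follows in part from it. KO replicate 2 came second for 8 genes and WT replicate 1 was lowest for 9. For Shh this second place is a tie in reads, since KO replicates 1 and 2 held 3 reads each.

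The other markers of hair-producing follicles were ordered likewise. The 13 hair shaft keratins together took 2.18, 2.24 and 2359 CPM in the WT libraries against 135, 796 and 95.5 CPM in the KO libraries, and 12 of the 13 were highest in WT replicate 3. Krt86 and Krt34 were at 0 in WT replicates 1 and 2, at 393 and 338 CPM in WT replicate 3, and at 13.8 to 138 CPM in KO. The 9 inner root sheath genes (Krt71, Krt25 and others) took 8.47, 9.36 and 22160 CPM in the WT libraries against 1786, 8959 and 903 CPM in the KO libraries. Krt71 had 0, 0.407 and 4035 CPM in the WT libraries against 356, 1318 and 160 CPM in the KO libraries. Shaft and sheath genes were thus far lower in WT replicates 1 and 2 than in the 4 other libraries. The part of this difference in the results for the 10 regulators was not tested beyond the fits given here. The basal epidermis score varied little (10.5 to 10.9) but was lowest in WT replicate 3, where its 6 genes together took 12942 CPM against 15992 to 20083 CPM elsewhere. Krt14, a keratin of basal cells, was at 3526 CPM there and at 5552 to 8386 CPM in the other libraries. In addition, the score of 14 cell cycle genes was lowest in WT replicate 3 (4.56, against 4.83 to 5.61 elsewhere).

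**Figure D2:**
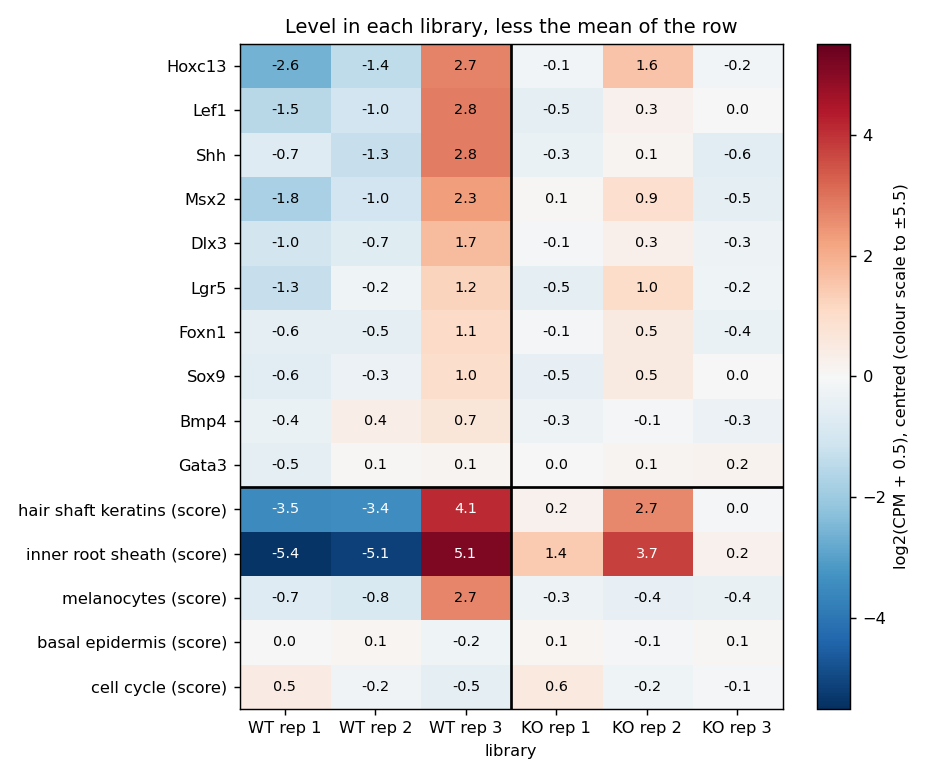
Level of each regulator and of 5 list scores in each library, less the mean of its row, on the log2(CPM + 0.5) scale (columns: 3 WT, then 3 KO libraries; red is above the row mean, blue below). The 8 regulators from Hoxc13 to Sox9 and both follicle scores are highest in WT replicate 3 and next in KO replicate 2 (for Shh a tie at 3 reads with KO replicate 1), while the basal epidermis score varies little and is lowest in WT replicate 3.

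WT replicate 3 and KO replicate 2, the libraries with most hair keratin, did not stand in 1 ratio over the 10 genes. Per depth, WT replicate 3 held 9.61 times as many Shh reads as KO replicate 2 (49 against 3 reads, 95% exact binomial interval 3.10 to 48.2) and 6.31 times as many Lef1 reads (236 against 22, interval 4.07 to 10.3). The ratio was 2.73 for Dlx3 (2.43 to 3.07), 2.63 for Msx2 (2.04 to 3.43) and 2.24 for Hoxc13 (1.81 to 2.80). It was 1.65 for Bmp4, 1.47 for Foxn1, 1.39 for Sox9, 1.17 for Lgr5 (0.883 to 1.56) and 1.01 for Gata3 (0.944 to 1.08). The intervals of Lef1 and Lgr5 did not overlap, so these Wnt pathway genes differed unequally between the libraries. These are 2 libraries and not 2 conditions, and the intervals cover counting error only.

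Gli1, a transcription factor that is itself a target of the hedgehog signal, was highest in the library with most Shh. It had 3.15, 1.83 and 13.5 CPM in the WT libraries against 2.88, 2.80 and 2.64 CPM in the KO libraries. Its level in KO replicate 2 lay between those of the other KO libraries, unlike that of the hair keratins, and 9 of the 12 hedgehog genes were highest in WT replicate 3. Melanocyte genes, which make hair pigment, had a like pattern. Of 8 listed genes 5 were tested, and all 5 were highest in WT replicate 3. Pmel was at 21.9 CPM there against 1.18 to 1.68 CPM elsewhere, and Tyrp1 at 24.6 CPM against 0.203 to 1.40 CPM. Tyrp1 passed the filter only through WT replicate 3, so its place as highest there was fixed by the filter.

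The fit was then repeated without WT replicate 3. Without it 4 genes were higher in KO at an unadjusted p below 0.05 in limma, against 2.24% of all genes tested, and 0 passed the adjustment, against 0.112%. These were Hoxc13 (log2 fold change 2.42, SE 0.58, adjusted p = 0.339), Msx2 (1.59, SE 0.44, adjusted p = 0.517), Lef1 (1.19, SE 0.39, adjusted p = 0.740) and Dlx3 (0.83, SE 0.19, adjusted p = 0.333). KO values lay wholly above those of WT for these 4, Foxn1 and Shh, against 8.05% of all genes tested. Shh would not have passed the filter without WT replicate 3, and its values were 1 and 0 reads in WT against 3, 3 and 1 in KO, which leaves 5 genes. WT replicate 3 was singled out because of its high level in follicle genes, these regulators among them. Leaving it out raises the KO minus WT value of any gene highest in it, so the counts without it are a description only.

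The opposite direction was found when the hair shaft keratin score of each library was added to the model. With that covariate 5 genes were lower in KO at an unadjusted p below 0.05 in limma, against 3.70% of all genes tested, and 0 passed the adjustment, against 0.0559%. These were Shh (-1.45, SE 0.50, adjusted p = 0.725), Lef1 (-1.13, SE 0.37, adjusted p = 0.695), Dlx3 (-0.65, SE 0.16, adjusted p = 0.475), Bmp4 (-0.60, SE 0.23, adjusted p = 0.797) and Foxn1 (-0.41, SE 0.17, adjusted p = 0.840). Shh was tested only because of its level in WT replicate 3, so its value is a description, and 4 genes are left without it. The score was -0.75, -0.67 and 6.84 in WT and 2.98, 5.41 and 2.702 in KO. Among WT libraries only WT replicate 3 had a score above 0, so within WT that library set the effect of the score. The score was also taken from these same libraries, and most regulators were, like it, highest in WT replicate 3. The counts with this covariate are therefore a description only, and a genotype difference at equal follicle content was not tested by them. The direction for Lef1 and Dlx3 turned between the fit without WT replicate 3 and the fit with the covariate. Bmp4 alone was lower in KO under all 15 alternatives. The log2 fold change of Bmp4 was -0.21 (SE 0.26, unadjusted p = 0.439 in limma) without WT replicate 3, against -0.72 without WT replicate 1. The lowest adjusted p in limma over all alternatives was 0.695 for Lef1, 0.333 for Dlx3, 0.339 for Hoxc13, 0.517 for Msx2, 0.725 for Shh, 0.840 for Foxn1 and 0.797 for Bmp4, and the highest was 0.99999 for each.

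**Figure D3:**
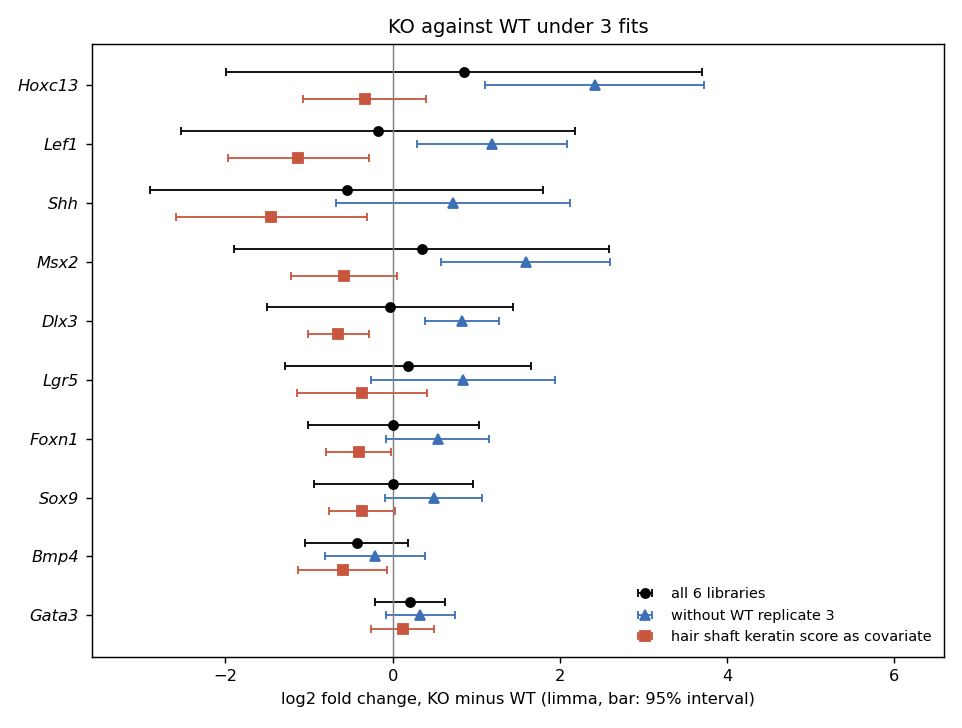
Log2 fold change (KO minus WT) of the 10 regulators with its 95% interval in limma, from all 6 libraries (black), without WT replicate 3 (blue) and with the hair shaft keratin score as a covariate (red). Intervals from all libraries include 0 for every gene, while Hoxc13, Msx2, Lef1 and Dlx3 lie above 0 in blue and Shh, Lef1, Dlx3, Bmp4 and Foxn1 lie below 0 in red.

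Other genes of the same pathways were examined in 7 lists written from textbook roles, which held 130 genes, of which 121 were tested. At an unadjusted p below 0.05 in limma, 1 was lower and 2 were higher in KO (2.48%, against 2.88% of all genes tested), and 0 passed the adjustment. Of the 26 Wnt genes tested, 1 was higher, Sfrp1, an inhibitor that binds Wnt ligands, with 94.8 ± 14.2 CPM in the WT against 137 ± 17.1 CPM in the KO libraries (SD, n = 3 each, log2 fold change 0.54, SE 0.14, adjusted p = 0.998). Wnt10b, a ligand of follicle growth, was at 3.28 ± 1.24 and 1.88 ± 0.801 CPM. None of 12 hedgehog genes and none of 19 BMP genes reached that level. Bambi, a decoy receptor, was at 38.1 CPM in WT replicate 3 and 4.11 to 13.2 CPM elsewhere, and Bmpr1b, a BMP receptor, was at 3.88 ± 1.47 and 4.90 ± 0.627 CPM.

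Of 18 tested matrix and sheath transcription factors 1 was higher, Hr (hairless, a corepressor needed for hair regrowth), with 539 ± 48.7 CPM in the WT against 678 ± 94.7 CPM in the KO libraries (log2 fold change 0.33, SE 0.13, adjusted p = 0.998). Msx1 was at 15.5 ± 6.50 and 10.5 ± 2.02 CPM, and Dlx4, at 4.12 CPM in WT replicate 3, was at 0 to 0.968 CPM elsewhere. Of 18 dermal papilla genes 1 was lower, Inhba, a subunit of activin, with 14.4 ± 6.23 CPM in the WT against 7.13 ± 1.36 CPM in the KO libraries (-0.89, SE 0.35, adjusted p = 0.998). Crabp1, a retinoic acid binding protein, was at 1.90 ± 0.260 and 3.36 ± 2.18 CPM. None of 17 stem cell genes and none of 17 genes of ectodysplasin, Notch and FGF signaling reached an unadjusted p below 0.05. Among them the stem cell keratin Krt15 was at 747 ± 323 and 504 ± 193 CPM, Krt24 at 81.3 ± 31.2 and 122 ± 64.0 CPM, the ectodysplasin receptor Edar at 1.89 ± 0.788 and 1.08 ± 0.469 CPM, and Fgf22 at 7.09 ± 5.89 and 8.88 ± 1.05 CPM.

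WT replicate 3 was the highest library for 66 of the 121 genes tested in these lists, against 19.9% of all genes tested. The 10 regulators were not taken out of this count, so it is not separate from theirs. Genes that passed the filter only through WT replicate 3, as Shh did, were not taken out either. The share by list was highest for hedgehog genes (9 of 12) and matrix factors (13 of 18), lower for BMP (11 of 19), ectodysplasin, Notch and FGF (9 of 17) and Wnt (13 of 26), and lowest for dermal papilla (7 of 18) and stem cell genes (6 of 17). Of the lists of other tissues, 6 of 10 skeletal muscle and 5 of 10 adipocyte genes were highest in WT replicate 3, but 2 of 11 sebaceous, 1 of 6 basal epidermal, 1 of 8 fibroblast, 1 of 12 T and innate lymphoid, 0 of 11 cartilage and 0 of 14 cell cycle genes. In limma 2 sebaceous genes were lower in KO at an unadjusted p below 0.05 (Scd1, -0.51, and Pparg, -0.81), as were 2 adipocyte genes (Retn, -1.22, and Fabp4, -0.94) and 2 muscle genes (Myh1, -0.51, and Mylpf, -0.51). The collagens Col11a2 of cartilage (1.09) and Col1a1 of fibroblasts (0.50) were higher, and 0 of all these passed the adjustment (adjusted p = 0.998 each). Median log2 fold changes of these lists were -0.52 for muscle, -0.79 for adipocytes, -0.26 for sebaceous gland, 0.034 for basal epidermis, -0.019 for fibroblasts, -0.077 for T and innate lymphoid cells, 0.56 for cartilage, -0.99 for melanocytes and 0.14 for the cell cycle. The part of these tissues in the results was not tested.

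**Figure D4:**
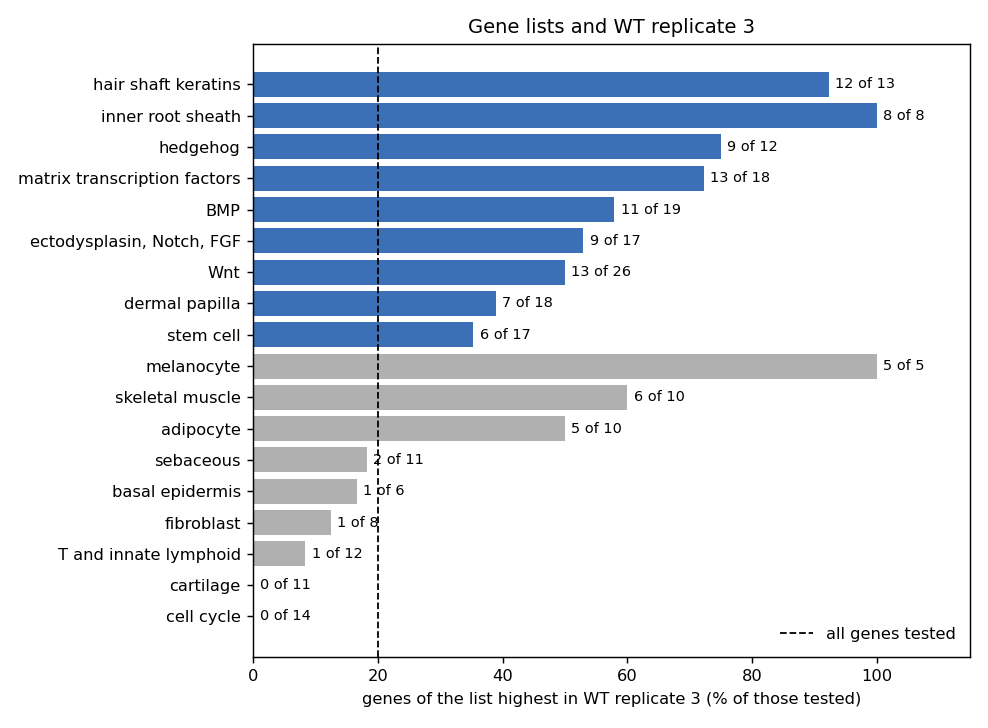
Share of the tested genes of each list that were highest in WT replicate 3 (bars from 0, in percent; blue for follicle lists, grey for other tissues and the cell cycle), with the number of genes at the bar and the 19.9% of all genes tested as a dashed line. Hair shaft, inner root sheath, hedgehog and melanocyte lists lie highest, and cartilage and cell cycle lists are at 0. Genes that passed the filter only through WT replicate 3, such as Tyrp1 of melanocytes, are counted.

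The genes whose pattern over the 6 libraries was closest to each regulator were found by the root mean square (RMS) difference of centred log2(CPM + 0.5) values. For Hoxc13 they were Golga7b (0.25), the companion layer keratin Krt75 (0.34) and the keratin-associated protein gene Krtap5-4 (0.37). For Lef1 they were Cps1 (0.17), Mycn (0.32) and Gm10024 (0.34), of which Cps1 was at 0.841 CPM or less and Gm10024 at 1.68 CPM or less outside WT replicate 3. For Msx2 they were Slain1 (0.28), Lrat (0.30) and Car6 (0.31). For Shh they were Gnmt (0.25), Tagln3 (0.26) and Dlx1as (0.29), which were at 1.12 CPM or less outside WT replicate 3. For Dlx3 they were Fras1 (0.17), Usp43 (0.19) and Lzts1 (0.23), and for Foxn1 Spon1 (0.091), Unc5b (0.11) and Ero1l (0.11). For Lgr5 they were Edn1 (0.15), Pdzrn3 (0.16) and Sardh (0.18), and for Sox9 the Wnt receptor gene Fzd5 (0.12), Shisa2 (0.13) and Dbn1 (0.14). Flat profiles make many near neighbours, as for Gata3 (Tpgs2, Zfp870 and Kantr, 0.032 to 0.052). The nearest genes of Bmp4 were Zfp341, Plag1 and Trip4 (0.107 to 0.112). Among pairs of the regulators Foxn1 and Sox9 were closest (0.22), followed by Gata3 and Bmp4 (0.35) and Foxn1 and Dlx3 (0.36), and Hoxc13 and Gata3 were farthest apart (1.59).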

How the data were processed

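RNA from 1 ear skin punch per mouse was sequenced (TruSeq libraries, paired ends). The authors trimmed the reads, aligned them to mm10 with STAR (2.7.3a), quantified them by expectation-maximization in Partek Flow and totalled them by gene. The authors deposited CPM, that is, values divided by the library total, with an offset of 0.0001 that was removed here. Gene ends are listed 1 base too far and were lowered by 1. Depth was worked out from the CPM of a single read: 91.6% to 92.7% of values under 20 reads lay within 0.1 of whole reads. Since the remainder did not, no count model was fitted.

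The genotypes were compared in limma 3.58.1 under R 4.3.3 (a linear model with moderated variance and a mean trend, two-sided). Values were log2(CPM + 0.5), and 14306 genes whose mean reached 1 CPM were tested, with Benjamini-Hochberg adjustment over all of them. This scale understates changes of low genes. Replicates are taken to be separate mice, 1 punch each. Libraries of a group were not duplicates (chi-square per degree of freedom 9.82 to 36.8). The fit was tested on simulated data. Permuting 3 against 3 libraries exactly gives no p smaller than 0.1. The 10 regulators and the lists were chosen with earlier results of these data known. Named beside the 10 regulators are the 2 genes of each follicle list with the largest fold change (1 of them is not reported here), the 3 nearest genes of each regulator and, after their values were seen, genes at an unadjusted p below 0.05 and some markers. For lists of other tissues only some are named. Alternatives were pseudocounts of 0.1 and 2, no filter or a mean of 5 CPM, median-of-ratios and quantile scaling, no trend, a replicate block, the hair shaft keratin score (13 genes) as covariate, and leaving out each library.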

Additional observations from a re-analysis of the deposited data

How the results depend on the processing

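No regulator passed the adjustment in limma under any of the 15 alternatives (adjusted p 0.333 to 0.99999), and Shh could not be tested at a mean of 5 CPM. Directions of single regulators turned in 25 cases. With the hair shaft keratin covariate the log2 fold changes were -0.41 for Foxn1, -0.34 for Hoxc13, -0.37 for Lgr5, -0.58 for Msx2 and -0.37 for Sox9, 1 regulator was positive and 5 reached an unadjusted p below 0.05. Over all genes 529 were then lower and 301 higher at that level, and 2 lower and 6 higher after adjustment. The sign turned for Dlx3 with quantile normalization (0.012, where 193 genes were lower and 232 higher at that level, against 260 and 152 as reported) and for Foxn1 with a pseudocount of 2 (-4.34e-05), and median-of-ratios scaling gave 215 lower and 210 higher genes. Leaving out single libraries moved the log2 fold change from -0.72 to -0.21 for Bmp4, -0.55 to 0.83 for Dlx3, -0.27 to 0.54 for Foxn1, -0.0095 to 0.33 for Gata3, -0.24 to 2.42 for Hoxc13, -0.98 to 1.19 for Lef1, -0.40 to 0.84 for Lgr5, -0.47 to 1.59 for Msx2, -1.33 to 0.72 for Shh and -0.31 to 0.49 for Sox9. The number of regulators with a positive change was 6 with all libraries and 0 (without WT replicate 1) to 9 (without WT replicate 3) otherwise, that at an unadjusted p below 0.05 was 0 to 4, and that without overlap 0 to 6 (the 6 include Shh, which was tested only through WT replicate 3). Over all genes, 147 to 390 were lower and 89 to 320 higher at that level, and 0 to 2 lower and 0 to 14 higher after adjustment. The 147 and both counts of 0 came without WT replicate 2, the 89 without KO replicate 3 and each of the highest counts without WT replicate 3. Adipoq was lower throughout, with an adjusted p of 0.0681 without WT replicate 2. The cause was not tested. Whether replicate numbers pair the libraries could not be settled, since deviations from the mean of 3 libraries sum to 0 within a group. These deviations correlated at 0.376, -0.306 and -0.222 for numbers 1, 2 and 3, and WT replicate 3 correlated best with KO replicate 2 (0.449). With the replicate block 414 genes were lower in KO, and no call on a regulator changed.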
